A study of Mus musculus with 9 samples.

Results

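The 8 genes described here encode receptors through which macrophages sense chemokines and the chemoattractant chemerin: Ccr1, Ccr2, Ccr3, Ccr7, Ccrl2, Cx3cr1, Cxcr4 and Cmklr1. They were found by matching the Ensembl identifiers of both expression tables to these mouse symbols, which gave 8 of the 55655 rows, 1 row for each gene. The cells were bone marrow-derived macrophages (BMDMs) of wild type C57BL/6 mice aged 6 to 8 weeks, grown from femur and tibia marrow for 7 days in medium with 10 ng/mL of the growth factor M-CSF. All groups shared this culture. M0 macrophages are the resting cells (n = 3), M1 macrophages were polarized for 12 hours with lipopolysaccharide (LPS), a bacterial cell wall component, together with interferon-γ (IFN-γ) (n = 3), and M1 + PBM macrophages received the same stimuli and were irradiated with a near-infrared laser (photobiomodulation, PBM) from the time the stimuli were added (n = 3). By the study's methods, the M1 cells without PBM also stood in the dark box. The study asked how PBM alters the transcriptome of M1 macrophages, and the question here is what the receptors did on M1 polarization and under PBM.

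Most chemokine receptors are G protein-coupled: a bound chemokine activates an inhibitory G protein, and the cell moves up the gradient of the ligand, until receptor kinases and arrestins end the signal and draw the receptor into the cell. CCR2 brings monocytes out of the bone marrow towards CCL2, CX3CR1 marks patrolling monocytes and many tissue macrophages, CXCR4 holds cells in CXCL12-rich niches such as the marrow, and CCR7 leads dendritic cells to lymph nodes. CMKLR1 is the signalling receptor for chemerin, and CCRL2 binds chemerin without signalling in the usual way and presents it to neighbouring cells.

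Expression was given as FPKM, which are fragment numbers divided by transcript length and by library depth, so that levels can be set side by side between genes. M0 has its own table, and whether both tables were normalised together is not given in the sources used here. M0 values are therefore described with no test. The depth, estimated from the steps between low FPKM values, was 31040000 to 42230000 fragments per library. All 7 macrophage markers, among them Adgre1 and Csf1r, passed the minimum of FPKM 1 in 3 of the 6 M1 and M1 + PBM libraries, and all 6 markers of the M1 state lay above M0 in every M1 library. M0 replicate 3 stood apart from the other M0 libraries: the summed FPKM of 6 stromal cell markers was 191 in it and 5.62 to 6.94 in the others, and the summed M1 state markers were 50.1 in it and 3.49 to 4.999 in the others. Differences of the receptors between M0 and M1 are therefore also given without it. In cells sequenced in bulk, fewer cells of a type and less RNA per cell cannot be told apart. The study states that the sequencing experiment was repeated independently, while the labels tie no library to a culture or animal, and p-values measure the spread between these libraries.

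The receptors differed widely in level. In M1 macrophages Ccrl2 had the highest mean FPKM (80.6 ± 12.0, SD, n = 3), followed by Cmklr1 (14.0 ± 7.79), Ccr1 (10.3 ± 2.90), Cxcr4 (4.82 ± 1.30) and Ccr3 (2.39 ± 1.07), while Cx3cr1 (0.819 ± 0.447), Ccr7 (0.265 ± 0.169) and Ccr2 (0.124 ± 0.0576) had means under 1. Of these neighbours in the order, Ccrl2 with Cmklr1, Ccr1 with Cxcr4, and Ccr3 with Cx3cr1 did not overlap in their libraries, whereas Cmklr1 with Ccr1, Cxcr4 with Ccr3, Cx3cr1 with Ccr7, and Ccr7 with Ccr2 did. In M0 macrophages the order was led by Cxcr4 (64.1 ± 23.8), with Ccr1 (5.43 ± 2.28) and Ccrl2 (5.07 ± 1.34) far below it and overlapping each other. The most abundant receptor was thus Cxcr4 in each M0 library and Ccrl2 in each M1 and M1 + PBM library. In M1 + PBM replicate 3 the margin was narrow, with 17.9 for Ccrl2 and 17.5 for Ccr1.

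**Figure D1:**
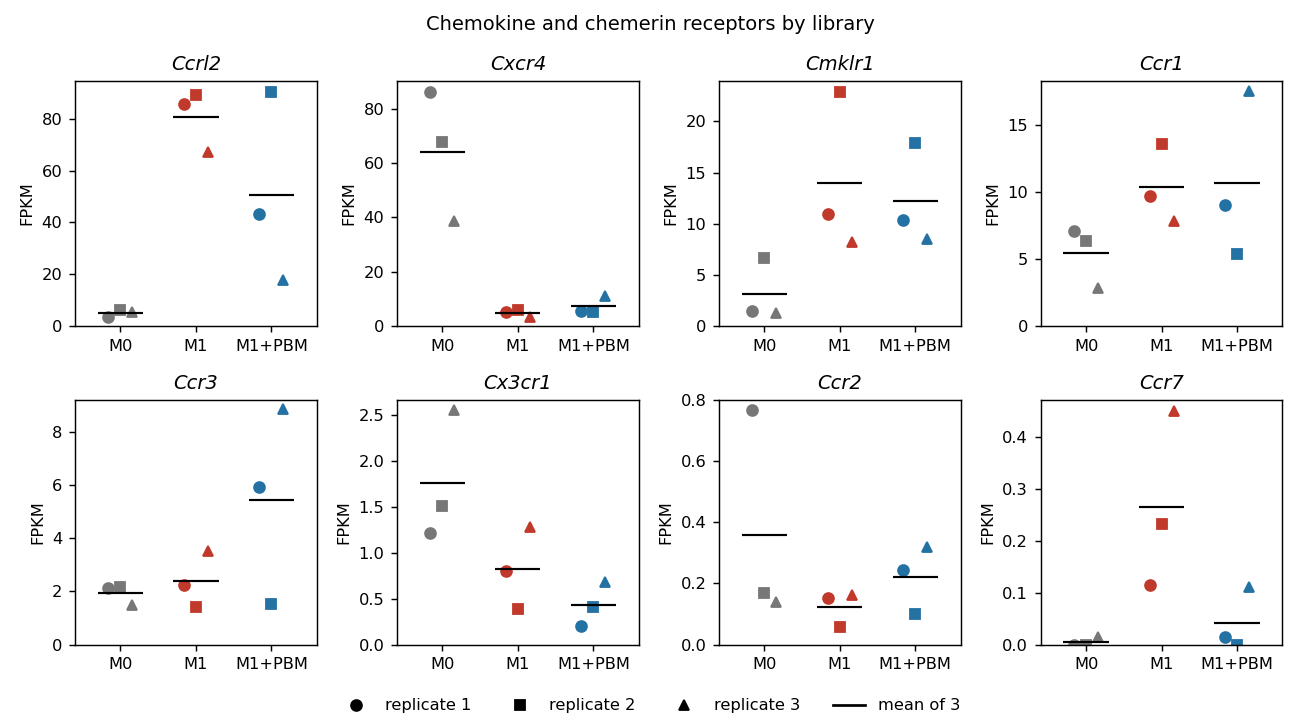
FPKM (linear axis from 0, own scale in each panel) of the 8 receptors in the M0, M1 and M1 + PBM libraries, with a symbol for each replicate number and a line at the mean of 3. Ccrl2 and Cxcr4 show the widest separation of M0 from M1, in opposite directions, and M1 + PBM replicate 2 (square) lies with the M1 libraries for Ccrl2 and Ccr3 while replicates 1 and 3 lie to one side.

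M1 polarization was compared with the resting state first. Ccrl2 and Cmklr1, the receptors of chemerin, lay higher in M1, and Cxcr4 lay lower, each without overlap of the libraries and by at least 2-fold on the log2(FPKM + 1) scale. These were 3 of the 6 receptors that reached an FPKM of 1 in 3 or more of all 9 libraries. By the same rule 7.81% of the 13915 rows past that minimum were higher in M1 (1087 rows) and 13.7% were lower (1904 rows). Values are not centred alike: the median difference over all these rows was -0.34, and median-of-ratios scaling over the 9 libraries moved it to -0.0073, with 1544 rows then higher and 1058 lower. For the receptors, differences after this scaling are given beside the others.

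Ccrl2 had an FPKM of 3.58, 6.17 and 5.45 in M0 replicates 1 to 3 and of 85.5, 89.3 and 67.0 in M1 replicates 1 to 3. The lowest M1 library was far above the highest M0 library, and the ratio of the means was 15.9. The difference was 3.76 on the log2(FPKM + 1) scale, 4.15 after scaling and 3.82 without M0 replicate 3. Cxcr4 went the other way, with 86.0, 67.5 and 38.7 in M0 and 5.32, 5.80 and 3.34 in M1. The M0 mean was 13.3 times the M1 mean, and the difference was -3.44, -3.03 after scaling and -3.76 without M0 replicate 3, which was the lowest of the M0 libraries for this gene.

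Because these receptors were at the extremes between M0 and M1, their promoters are shown (RefSeq, GRCm38.p6, 300 bases around the annotated start, most of them before it, 5′ to 3′ on the strand of the gene). For Ccrl2, which has 3 annotated starts, the window of the most upstream one is chr9:111057469-111057768 on the minus strand. Capitals mark a match to the NF-κB motif GGANTTTCC, 68 bases before the start, and the hypoxia response core ACGTG, here on the opposite strand, 82 bases before it. The windows of the 2 other Ccrl2 starts, not shown, held that core 99 and 125 bases before the start and no NF-κB match. The Cxcr4 window is chr1:128592250-128592549 on the minus strand, and its capitals mark 2 overlapping matches, 1 on each strand, to the TATA box motif TATAAA, 30 and 32 bases before the start.
Ccrl2: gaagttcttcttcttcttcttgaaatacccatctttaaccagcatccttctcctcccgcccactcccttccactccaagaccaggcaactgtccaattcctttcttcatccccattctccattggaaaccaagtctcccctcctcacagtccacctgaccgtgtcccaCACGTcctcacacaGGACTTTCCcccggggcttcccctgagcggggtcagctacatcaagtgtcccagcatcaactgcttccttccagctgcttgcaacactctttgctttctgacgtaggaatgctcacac
Cxcr4: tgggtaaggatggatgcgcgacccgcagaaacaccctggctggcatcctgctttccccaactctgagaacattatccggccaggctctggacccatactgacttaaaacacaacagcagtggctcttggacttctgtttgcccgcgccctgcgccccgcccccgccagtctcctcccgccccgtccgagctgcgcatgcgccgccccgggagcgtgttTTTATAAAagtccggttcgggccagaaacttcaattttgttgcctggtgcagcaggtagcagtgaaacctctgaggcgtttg
The motifs were searched on both strands. Of 32851 mouse promoter windows of the same length, 1.25% held the NF-κB form, 19.6% the hypoxia response core and 13.6% the TATA box motif. Windows were found for 7 of the 8 receptors (9 windows, Ccr7 not among them). Also searched were the interferon-γ activated site TTCNNNGAA (in 8.3% of all windows), the interferon-stimulated response element GAAANNGAA (8.56%) and the AP-1 motif TGANTCA (7.81%). In Ccr3 an NF-κB match lay 179 bases and an AP-1 match 144 bases before the start, in Ccr2 an interferon-stimulated response element match lay 86 bases before it, and in Cmklr1 the hypoxia response core lay 144 and 145 bases before it, as overlapping matches on both strands. The windows of Ccr1 and Cx3cr1 held none of the 6 motifs, although Ccr1 held a match to the NF-κB form searched first. A match is thus not particular to the windows named here. The Cxcr4 window was 59.3% G and C, against 53.0% in Ccrl2 and 39.0% in Ccr3. A match is a run of letters, and binding was not measured.

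Cmklr1 had an FPKM of 1.47, 6.68 and 1.30 in M0 and of 10.97, 22.9 and 8.19 in M1. Replicate 2 was the highest of both groups, and the groups did not overlap. The ratio of the means was 4.45, with a difference of 1.97 on the log2 scale, 2.30 after scaling and 1.66 without M0 replicate 3. M0 replicate 2 carried much of the M0 mean: without it the ratio was 10.1 and the difference 2.53. Ccr1, the receptor of CCL3, CCL5 and related chemokines, also lay higher in every M1 library, with 7.11, 6.36 and 2.83 in M0 and 9.65, 13.5 and 7.85 in M1. Its difference of 0.86 was under the 2-fold limit, and after scaling it was 1.23, past that limit. The margin between the groups was narrow, and without M0 replicate 3 the difference was 0.52.

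The other receptors showed no separation of that size. Ccr3, best known as the eotaxin receptor of eosinophils, had 2.14, 2.15 and 1.501 in M0 and 2.25, 1.40 and 3.53 in M1, so that the groups overlapped (difference 0.17, 0.47 after scaling, 0.06 without M0 replicate 3 and -0.06 without M1 replicate 3). The values of Cx3cr1, the fractalkine receptor, were 1.22, 1.51 and 2.55 in M0 and 0.796, 0.384 and 1.28 in M1. The groups overlapped by a narrow margin, since the highest M1 library lay just above the lowest M0 library, and the difference was -0.60 (-0.36 after scaling, -0.40 without M0 replicate 3). Ccr2 was listed at 0.767, 0.169 and 0.139 in M0 and at 0.152, 0.0577 and 0.162 in M1, with M0 replicate 1 alone above the rest. Ccr7 was listed at 0, 0 and 0.0147 in M0 and at 0.115, 0.232 and 0.449 in M1. All 3 M1 libraries of Ccr7 were above M0, but at a level that rests on few fragments. If every fragment came from its longest annotated transcript, 9.1, 16.8 and 28.1 fragments lay behind the M1 values and at most 1 behind those of M0. These are upper estimates at the estimated depth.

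**Figure D2:**
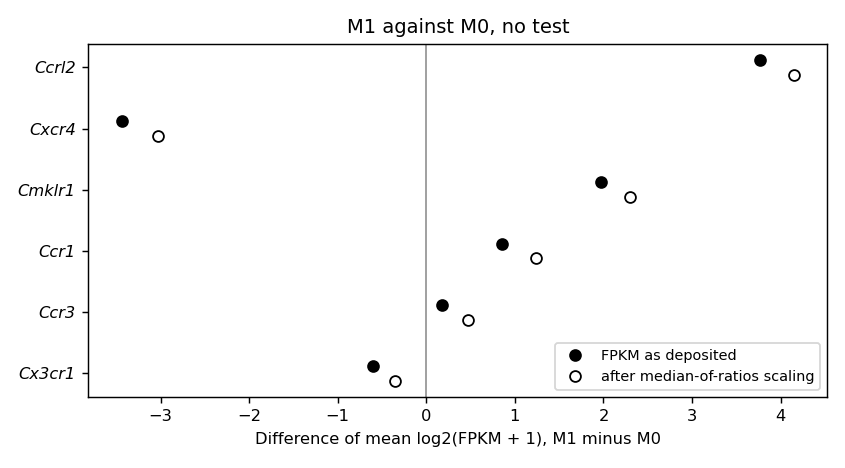
Difference of the mean log2(FPKM + 1) between M1 and M0 (horizontal axis, M1 minus M0, n = 3 each) for the 6 receptors past the minimum of the 9 libraries, as deposited (filled) and after median-of-ratios scaling (open). Ccrl2 lies at 3.76 and Cxcr4 at -3.44, and scaling moves each point to the right without turning a direction.

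PBM was then compared with M1 alone. No receptor passed the test: 0 of the 5 receptors past the minimum had an unadjusted p of at most 0.05 by limma, where 4.44% of the 12238 rows tested did (543 rows), and 0 of 5 passed the study's thresholds, which add a 2-fold limit and which 0.261% of the rows passed (32 rows). The 32 rows are those of the limma fit and not the study's own count. The study does not name its test, and at these thresholds it reports many more genes, most of them higher with PBM. At an adjusted p under 0.05, 0 of 5 receptors passed, beside 0.00817% of the rows (1 row). The M1 and M1 + PBM libraries overlapped for all 5, whereas 11.0% of the rows did not overlap. On the log2(FPKM + 1) scale means were higher with PBM for 2 of the 5 and lower for 3, with a median log2 fold change of -0.07, beside a median of 0.06 over all rows tested. The intervals of the fold changes were wide, and changes of 2-fold in at least 1 direction lay within each of them.

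The widest differences were those of Ccrl2 and Ccr3. Ccrl2 had an FPKM of 43.1, 90.2 and 17.9 in M1 + PBM replicates 1 to 3, against 85.5, 89.3 and 67.0 in M1. Replicates 1 and 3 were below every M1 library, while replicate 2 was above them all. The log2 fold change was -0.94 (SE 0.53, 95% interval -2.22 to 0.35, limma p = 0.126, adjusted p = 0.90, exact permutation p = 0.4). The labels state no pairing, and the replicate numbers were taken as pairs from correlations in these same data. With the replicate as a block on that assumption, the limma p was 0.0491 (95% interval -1.87 to -0.0053, adjusted p = 0.577). Every level of M1 + PBM, the lowest included, remained above the M0 libraries.

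Ccr3 had 5.94, 1.53 and 8.85 in M1 + PBM, against 2.25, 1.40 and 3.53 in M1. Again replicates 1 and 3 stood outside the range of M1, here above it, and replicate 2 within it. The log2 fold change was 0.76 (SE 0.51, 95% interval -0.47 to 1.997, limma p = 0.183, adjusted p = 0.90, exact permutation p = 0.3), and with the replicate block the p was 0.0251 (95% interval 0.14 to 1.38, adjusted p = 0.577). With the block, 2 of the 5 receptors thus had an unadjusted p of at most 0.05, where 8.07% of all rows tested did.

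Both results turned on M1 + PBM replicate 2. Without it the log2 fold change of Ccrl2 was -1.49 (adjusted p = 0.555) and that of Ccr3 was 1.33 (adjusted p = 0.548). The unadjusted limma p of both, 0.00792 and 0.00522, then lay under 0.05, as did that of 930 of the 12238 rows. Without replicate 3 they were -0.35 and 0.35. The summed FPKM of the 6 stromal cell markers had the same order as Ccr3 within M1 + PBM: it was 22.6, 6.31 and 27.8 in M1 + PBM and 13.0 to 14.8 in M1, with 0 of the 3 tested stromal markers at an unadjusted p of at most 0.05 by limma. Their part in the result was not tested. Of the defining markers of eosinophils, Prg2 and Ear6 were listed at 0 in all 9 libraries and Epx at no more than 0.025, and the summed level of the 5 eosinophil markers was 0.362 to 0.539 in M1 + PBM and 0.285 to 0.696 in M1. In M0 this sum reached 7.41, nearly all of it from Siglecf, whose level of 7.38 in M0 replicate 1 was the highest. A value of exactly 0 in all libraries may be a failed estimate here and in the genes below, since the neutrophil marker S100a9 was also listed at 0 throughout while S100a8 reached 27.2.

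The remaining receptors were centred closer to no change. Cxcr4 had 5.35, 5.19 and 11.1 in M1 + PBM, against 5.32, 5.80 and 3.34 in M1, and replicate 3 alone was above the M1 range (log2 fold change 0.45, SE 0.31, 95% interval -0.28 to 1.19, limma p = 0.186, exact permutation p = 0.5). All M1 + PBM libraries remained under the M0 libraries, whose lowest value was 38.7. Ccr1 had 9.03, 5.35 and 17.5, against 9.65, 13.5 and 7.85, so that M1 + PBM spanned a wider range than M1 on both sides (log2 fold change -0.07, SE 0.40, 95% interval -1.02 to 0.88, limma p = 0.862, exact permutation p = 1.0). Cmklr1 had 10.4, 17.9 and 8.49, against 10.97, 22.9 and 8.19, and in both groups replicate 2 was the highest (log2 fold change -0.12, SE 0.41, 95% interval -1.10 to 0.86, limma p = 0.775, exact permutation p = 0.7). With the replicate block the interval of Cmklr1 was narrower, from -0.39 to 0.15. The exact permutation tests are two-sided on FPKM, and 3 libraries against 3 cannot give a p under 0.1.

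**Figure D3:**
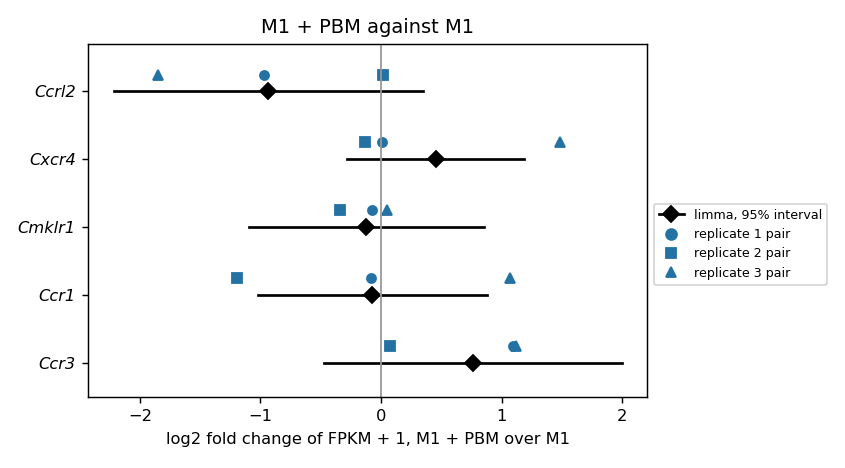
Log2 fold change of FPKM + 1, M1 + PBM over M1 (horizontal axis), for the 5 receptors past the minimum. Diamonds and lines are limma estimates with 95% intervals without the block (n = 3 each), and the small symbols are the differences within each replicate number. All 5 intervals include 0, and for Ccrl2 and Ccr3 the replicate 2 pair lies near 0 while the others lie on 1 side.

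Within the replicate numbers, Ccrl2 differed by -0.97, 0.01 and -1.85 and Ccr3 by 1.09, 0.08 and 1.12 in pairs 1 to 3. Those of Cxcr4 were 0.007, -0.13 and 1.48, and those of Ccr1 -0.09, -1.19 and 1.06, so that the sign differed between pairs. Over the 6 libraries Ccr3 and Ccrl2 lay in opposite order, with r = -0.94 between their log2(FPKM + 1) values, a description over libraries that share their table and normalisation.

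The 3 receptors under the minimum were Ccr2, Ccr7 and Cx3cr1. In M1 + PBM Ccr7 was listed at 0.0147, 0 and 0.110, below every M1 library, the nearest by a narrow margin (0.115). At most 8.1 fragments stood behind each of these values by the upper estimate. In a fit with no minimum FPKM (31779 rows) its log2 fold change was -0.27 (SE 0.10, limma p = 0.038, adjusted p = 0.898, exact permutation p = 0.1), and 1318 rows had a p of at most 0.05 there. With the replicate block as well, its p was 0.00985 (adjusted p = 0.759). Among dendritic cells, in which CCR7 is best known, the defining marker Flt3 was listed at 0 in all 9 libraries and Zbtb46 at no more than 0.260, and the 6 dendritic markers summed to 2.95 to 5.43 in M1 and 4.95 to 5.13 in M1 + PBM, most of it from Fscn1 (2.72 to 5.22 and 4.68 to 4.70). Ccr2 was listed at 0.244, 0.1001 and 0.321 in M1 + PBM, overlapping M1 (log2 fold change 0.12, limma p = 0.182, exact permutation p = 0.3). Within pairs it was higher in each (by 0.11, 0.06 and 0.18), and with the block and no minimum its p was 0.0356 (adjusted p = 0.759). Of its longest transcript, 2.27% of the stretches of 50 bases also occur in other genes. The values of Cx3cr1 were 0.200, 0.414 and 0.678, overlapping M1 (log2 fold change -0.33, limma p = 0.188, exact permutation p = 0.3) and below every M0 library.

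By the same measure of likeness over the 6 M1 and M1 + PBM libraries, with 12237 genes compared, Ccrl2 was closest to Rps6ka4, Tnf and Lrrc75aos1, with r of 0.994 or more. Tnf, the inflammatory cytokine, had an FPKM of 375, 443 and 295 in M1 and 221, 417 and 106 in M1 + PBM, in the same order as Ccrl2 apart from M1 + PBM replicate 2 against M1 replicate 2. Ccr3 was closest to an assembled locus with no gene name, Vasn and Vps9d1, Cxcr4 to Csrnp2, Entpd6 and Kansl1, Ccr1 to Fads2, S100a10 and Gm6542, and Cmklr1 to Hnrnph3, Gm12216 and a second unnamed locus. The number of genes with r over 0.95 was 116 for Ccr3, 114 for Cmklr1, 62 for Ccrl2, 53 for Cxcr4 and 12 for Ccr1. These values describe 6 libraries and carry no test.

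Several ligands were far more abundant than their receptors. Of 18 listed ligands 10 passed the minimum, that of the 6 as well as that of the 9 libraries. In M1, 8 of the 18 lay above M0 without overlap and by at least 2-fold, as did 7.81% of all rows past the minimum of the 9 libraries. The count was also 8 without M0 replicate 3. Ccl5, Ccl8 and Ccl12 passed the minimum only through the M1 and M1 + PBM libraries, where they were high. The count of ligands can therefore not be weighed against that share. Ccl5, a ligand of CCR1 and CCR3, had a mean FPKM of 3.87 ± 4.91 in M0, 1983 ± 457 in M1 and 1769 ± 194 in M1 + PBM. Ccl9, a CCR1 ligand, had 124 ± 69.8, 349 ± 38.4 and 361 ± 71.0. Means of the CCR2 ligands in M0, M1 and M1 + PBM were 22.4, 176 and 107 for Ccl2, 17.7, 266 and 149.8 for Ccl7, and 3.14, 94.8 and 67.3 for Ccl12. Ccl8 was at 0.642, 10.6 and 13.7. M0 replicate 3 was the highest M0 library for each of these ligands, and without it the M0 mean was 8.01 for Ccl2, 3.27 for Ccl7, 0.257 for Ccl12, 1.06 for Ccl5, 88.7 for Ccl9 and 0 for Ccl8. Ccl6 (57.9, 51.3 and 33.5) and Mif (62.1, 58.2 and 42.1), a cytokine that also binds CXCR4, overlapped between M0 and M1.

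With PBM 2 of the 10 ligands had higher and 8 lower means on the log2 scale, with a median log2 fold change of -0.46 beside 0.06 over all rows. Ccl3 and Ccl4, which encode the macrophage inflammatory proteins that act on CCR1 and related receptors, passed the study's thresholds, and they were 2 of 10 ligands at an unadjusted p of at most 0.05, beside 4.44% of all rows. Ccl3 had an FPKM of 350, 370 and 501 in M1 and 139, 322 and 70.6 in M1 + PBM. Every M1 + PBM library was below the M1 libraries, and Ccl3 fell by 1.45 on the log2 scale (SE 0.52, limma p = 0.029, adjusted p = 0.90, exact permutation p = 0.1). Ccl4 had 181, 135 and 393 in M1 and 91.6, 146 and 88.4 in M1 + PBM, overlapping through replicate 2, and fell by 1.00 (SE 0.41, limma p = 0.049, adjusted p = 0.90, exact permutation p = 0.2). For both, as for Ccrl2, M1 + PBM replicate 2 lay highest in its group. With the replicate block 4 ligands had an unadjusted p of at most 0.05, with Ccl2, Ccl3 and Ccl7 lower, Ccl8 higher and Ccl4 no longer among them. Of all rows tested, 8.07% had such a p with the block. Neither Ccl3 nor Ccl4 had such a p without M1 replicate 1, M1 replicate 3, M1 + PBM replicate 1 or M1 + PBM replicate 3, and without M1 replicate 2 Ccl4 alone of the pair did.

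The ligands of several receptors were near the lower end of the data. Cxcl12, the ligand of CXCR4, was listed at 0.118, 0.209 and 8.21 in M0, the last in M0 replicate 3, and at no more than 0.820 in the other groups. Rarres2, which encodes chemerin, the ligand of CMKLR1 and CCRL2, was at no more than 0.591 in any library. Ccl19 was listed at 0.021 in 1 M1 + PBM library and at 0 in the others, and Ccl21a and Ccl21b, the further ligands of CCR7, were listed at 0 in all 9.

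**Figure D4:**
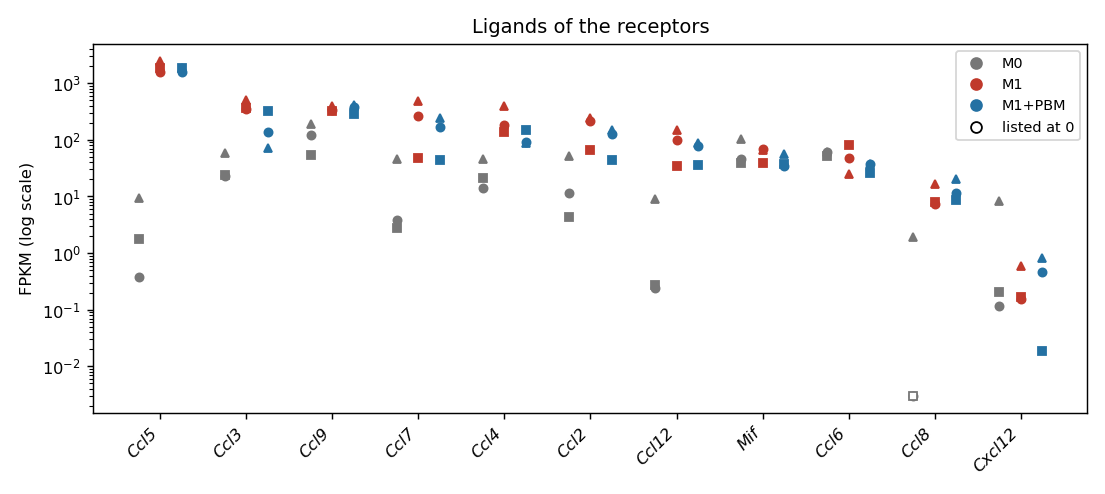
FPKM (log scale) of the 11 ligands with a mean of at least 1 in any group, for each library of M0, M1 and M1 + PBM, with symbols by replicate number (circle 1, square 2, triangle 3) and open symbols at the bottom for values listed at 0. Ccl5 is the highest ligand in M1, Ccl3 is the ligand whose M1 + PBM libraries all lie below M1, and Cxcl12 exceeds 1 in M0 replicate 3 alone.

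The RNA of proteins that carry and end the receptor signal was examined as a list of 30 genes, 29 of which passed the minimum. Of these, 18 were higher and 11 lower with PBM on average, with a median log2 fold change of 0.08, and 6 were higher at an unadjusted p of at most 0.05 by limma, none of them at an adjusted p under 0.05 (each 0.90) or past the study's thresholds, where 4.44% of all rows had such an unadjusted p in either direction. These were the receptor kinases Grk6 (log2 fold change 0.30) and Grk5 (0.34), which mark active receptors, Arrb1 (0.55), the arrestin that binds the marked receptor, Rgs2 (0.56), which shortens G protein signals, Dock2 (0.27), a Rac activator needed for leukocyte migration, and Gng2 (0.40), a G protein subunit. Their limma p ran from 0.0126 (Grk6) to 0.0459 (Gng2), and exact permutation tests gave 0.1 for each but Gng2 (0.2). On the values as deposited, all 6 lay lower in M1 than in M0 without overlap and by at least 2-fold, as did 13.7% of all rows. The same M1 libraries served to pick the 6, so this comparison is not independent of that choice. Dock2 (-1.01) and Grk6 (-1.02) passed the 2-fold limit narrowly. They were at -0.87 and -0.91 without M0 replicate 1, and at -1.18 and -0.96 without M0 replicate 3. Grk5 was at -1.20 with all libraries. Median-of-ratios scaling over the 9 libraries moved differences up by a median of 0.34 over all rows. Whether Dock2, Grk6 and Grk5 pass the 2-fold limit after it was not computed. Among the 6, Arrb1 had an FPKM of 12.0, 11.2 and 11.4 in M0, of 1.85, 2.26 and 1.07 in M1 and of 2.87, 2.32 and 3.71 in M1 + PBM. Rgs2 had 31.8, 25.7 and 17.2, then 1.195, 1.61 and 1.09, then 2.07, 1.76 and 3.58. More abundant relatives did not fall in M1. Grk2 had means of 49.0 in M0, 73.0 in M1 and 81.6 in M1 + PBM, and Arrb2 had 63.1, 64.0 and 74.9. In M1, Grk2 lay above M0 without overlap but under the 2-fold limit (difference 0.57), and Arrb2 overlapped M0 (0.02). For 5 of the 6 (all but Gng2) the M1 + PBM libraries lay above every M1 library and below every M0 library. Over all rows, 11.0% did not overlap between M1 and M1 + PBM in either direction, whatever their M0 values. Because the 6 were picked by their p in this same comparison, their lack of overlap adds no separate evidence and cannot be weighed against that share. With the replicate block 3 were higher at an unadjusted p of at most 0.05 (Dock2, Gng2 and Grk6) and 1 lower (Rgs14), and 4 were higher after median-of-ratios scaling of the 6 libraries. Leaving out 1 library gave 1 to 6 higher and 0 to 1 lower, and Grk6 was among the higher ones each time. Over all rows in either direction, 8.07% had such a p with the block and 530 of 12238 after scaling. Without 1 library it was 259 to 1089 of 12238.

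Other receptors of the family were sparse. Of 13 further chemokine receptors 3 passed the minimum, 0 of them had a p of at most 0.05 by limma, and the highest FPKM of the other 10 in M1 or M1 + PBM was 0.728. Of the 4 atypical receptors and the second chemerin receptor Gpr1, 0 of 5 passed, and their highest FPKM in M1 or M1 + PBM was 0.291.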

How the data were processed

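RNA of mouse BMDMs was sequenced by the authors in 9 libraries, and conditions and replicate numbers were taken from the labels. The authors deposited FPKM values, for which the methods name Cufflinks, in 2 tables of 55655 rows, 1 for M0 and 1 for M1 and M1 + PBM. The submitters' processing notes list Bowtie 0.12.2 and mm9 without a role. Rows of the form MSTRG (320) come from a transcript assembly. Counting by strand is not stated. Because 34.6% to 38.2% of low values were whole multiples of 1 fragment (tolerance 0.05, 10% by even spread), no counts were recovered. The depth estimate limits what low values can show. Fragment numbers behind a gene are upper estimates for transcript length only, and they hold at the estimated depth.

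limma 3.58.1 in R 4.3.3 (lmFit, eBayes with trend, 2-sided) was applied to log2(FPKM + 1) of the 6 M1 and M1 + PBM libraries, keeping the rows that reached FPKM 1 in 3 or more of them, with Benjamini-Hochberg adjustment over all 12238. This scale understates the change of low genes. The limma fit was first tested on simulated data. Exact permutation tests used scipy 1.17.1. Deviations from the group mean correlated between same-numbered libraries of both groups (r = 0.157, 0.469 and 0.462, against -0.491 to 0.0328 between numbers), so the numbers were taken as pairs and a replicate block was fitted beside the main design.

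Members and lists were chosen with earlier results of these data known. Every receptor is named, as are listed signalling genes and other receptors with an unadjusted p of at most 0.05, ligands with that p or a mean FPKM of at least 1 in any group, and the 3 genes most correlated with each tested receptor. Ligands with lower means, markers and Gpr1 were named beside these as lists, and Arrb2 and Grk2 as abundant relatives of named signalling genes. Promoter windows are RefSeq's (GRCm38.p6). The NF-κB and interferon-stimulated response element motifs replaced longer forms searched first, under which Ccr1 also held an NF-κB match, Ccrl2 a further one, and Ccr2 none of the interferon element. Symbols came from GENCODE release M21 (55154 rows). Alternatives were a pseudocount of 0.1, other minimum levels, scalings and variance settings, the block, and leaving out each library. A pseudocount of 0.1 with no minimum, and the block with no minimum, were chosen after seeing the data.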

Additional observations from a re-analysis of the deposited data

How the results depend on the processing

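The count of receptors at an unadjusted p of at most 0.05 by limma, 0 of 5 for M1 + PBM against M1, was 1 with no minimum FPKM and 1 with a pseudocount of 0.1 and no minimum (Ccr7 in both, among 8 receptors). It was 2 with the replicate block (Ccr3 and Ccrl2), 3 with the block and no minimum (Ccr2, Ccr3 and Ccr7), and 0 to 2 when a library was left out, the 2 without M1 + PBM replicate 2. Of 31779 rows, 1318 had such a p with no minimum. With no minimum it was 1232 rows with a pseudocount of 0.1 and 1702 with the block. Of 12238 rows, 988 had it with the block alone and 259 to 1089 with a library left out. The block, which pairs samples by replicate number, took no receptor of Cxcr4, Ccr1 and Cmklr1 past that threshold. By the main limma fit 32 genes were past the study's thresholds (3 higher, 29 lower). This count became 75 with a pseudocount of 0.1 (23 higher, 52 lower), 13 without moderation, and 236 with a pseudocount of 0.1 and no minimum. It was 27 to 89 without 1 library (69 if M1 replicate 2 and 89 if M1 + PBM replicate 2 is the one left out). With a library left out the log2 fold change of Ccr1 ran from -0.48 to 0.30, turning positive when replicate 2 of M1 (0.12) or of M1 + PBM (0.30) was missing, and that of Cmklr1 from -0.41 to 0.27, turning positive when M1 replicate 2 (0.27) or M1 + PBM replicate 3 (0.088) was missing. Between M0 and M1, Ccr3 ran from -0.060 (without M1 replicate 3) to 0.40 with a library left out, Cx3cr1 was -1.08 with a pseudocount of 0.1, and the receptors past the 2-fold rule numbered 3 to 4. A mean FPKM of at least 5 removed Ccr3, which then had no value. The causes were not tested. Cxcr4 kept its direction and did not pass the threshold under all 16 alternatives. Low FPKM limits Ccr2, Ccr7 and Cx3cr1.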

Other observations

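Rac1, a GTPase of cell migration on the signalling list, was singled out after its values were seen: its FPKM was 49.0 in M1 + PBM replicate 1, against 18.7 and 20.1 in the other M1 + PBM libraries, 17.2 to 18.6 in M1 and 24.2 to 25.5 in M0. Its log2 fold change with PBM was 0.53 (SE 0.35, limma p = 0.177, exact permutation p = 0.1). Rgs16, also of that list and also singled out afterwards, was below the minimum, with an FPKM of 0.619 to 1.02 in M1 and 0.385 to 0.435 in M1 + PBM, so that the groups did not overlap.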
